A study of Caenorhabditis elegans with 2 samples.

Results

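The genes described here were 42 regulators of chromatin in Caenorhabditis elegans, listed by name, a list drawn up with earlier results of these data known: the DREAM complex, the NuRD and MEC complexes and deacetylases, other synMuv B and heterochromatin proteins, histone methyltransferases and demethylases, an acetyltransferase and nucleosome remodellers. All 42 matched among 19973 protein-coding genes. For each of them the question was whether KLF-2, a Krüppel-like zinc-finger transcription factor, had a ChIP-seq peak at its promoter. The data were peak lists from 1 group of 2 biological replicates, with no second condition. The worms were of strain RW12310, in which CRISPR insertion placed TY1, EGFP and 3xFLAG tags on klf-2 (allele st12310). Embryos were obtained by bleaching and labelled midembryonic, with an age of 1.5 hours, and chromatin of the whole animals was sonicated and precipitated with an antibody against GFP. The strain label puts the allele on chromosome II, whereas the gene models used here have klf-2 on chromosome V. Both replicates carry the same tagged allele, and untagged worms were not analysed here. Whole embryos mix all cell types, so strong occupancy in few cells and weak occupancy in many cannot be told apart.

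DREAM joins an RB-like pocket protein, an E2F and DP pair and the MuvB core, and it represses cell-cycle genes and, in worm somatic cells, germline genes. NuRD and the worm MEC complex combine a Mi-2 ATPase with histone deacetylases or a zinc-finger partner and also keep germline genes silent in the soma. The remaining genes write, read or remove methyl marks on histone H3, acetylate histones or move nucleosomes, and several were first found as synMuv B genes, which restrain vulval fate in worms.

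A gene was scored by its highest peak with a summit between 1000 bp upstream and 500 bp downstream of any annotated transcript start, called its promoter window here. The series ranked list held 111583 peaks of both replicates. The conservative list held 1032 of them, all with a −log10 global IDR of 2 or more. The global IDR (irreproducible discovery rate) is the expected share of irreproducible peaks among those ranked as high or higher. Of 1208 distinct ranked peaks at 2 or more, 1032 were in the conservative list, so this value alone does not define the list. The signal value is the authors' own value for a peak, and lists were not scaled to each other. Each gene's value was turned into a percentile among all protein-coding genes within each list, in which genes without a peak share the lowest rank. Read depth is unknown, and intervals of shares (exact Clopper-Pearson, 95%) cover the counting of genes only.

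Of the 42 genes, 8 had a conservative peak at the promoter. Among them were the H3K9 methyltransferase gene set-25 and the DREAM genes lin-35, lin-53 and lin-54. The others were the Mi-2 ATPase gene let-418 (NuRD and MEC), the MEC gene mep-1, the MRG15-like gene mrg-1 and the acetyltransferase gene cbp-1. These 8 were 19% of the 42 (95% interval 8.6 to 34.1%), beside 3.05% of all protein-coding genes. Because the list was drawn up with earlier results of these data known, this interval is not a test of enrichment. The sequences below are the 101 bases centred on the summits of 6 of these promoters, shown because their letters are compared further on. Each is read from the RefSeq WBcel235 genome (ce11 coordinates), 5′ to 3′ on the strand of the named gene, and capitals mark matches on either strand to the motif TTTGAA (reverse complement TTCAAA), its variant TTCGAA, the motif CGCGCA (reverse complement TGCGCG) and the palindrome GCGCGC.
set-25, chrIII:13293114-13293214, minus strand: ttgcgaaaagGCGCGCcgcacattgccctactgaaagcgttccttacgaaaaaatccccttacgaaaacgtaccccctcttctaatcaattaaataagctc
mrg-1, chrIII:12874823-12874923, minus strand: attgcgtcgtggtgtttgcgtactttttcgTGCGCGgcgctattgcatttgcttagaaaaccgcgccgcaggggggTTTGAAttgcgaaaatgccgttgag
cbp-1, chrIII:9765494-9765594, plus strand: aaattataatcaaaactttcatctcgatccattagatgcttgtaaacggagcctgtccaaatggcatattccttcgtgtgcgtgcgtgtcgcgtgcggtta
let-418, chrV:5826208-5826308, plus strand: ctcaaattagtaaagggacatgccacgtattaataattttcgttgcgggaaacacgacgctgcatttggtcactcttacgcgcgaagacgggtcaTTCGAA
mep-1, chrIV:11524458-11524558, plus strand: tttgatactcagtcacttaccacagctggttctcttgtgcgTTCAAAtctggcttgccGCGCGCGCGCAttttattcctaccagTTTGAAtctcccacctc
lin-54, chrIV:13240634-13240734, plus strand: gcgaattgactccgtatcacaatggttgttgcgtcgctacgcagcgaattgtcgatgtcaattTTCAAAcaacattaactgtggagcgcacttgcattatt

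As a group the chromatin genes stood in the upper part of the ranking. Their median signal value in the series ranked list was 44.7 (quartiles 33.0 and 66.9), beside 30 (12.4 and 42.3) over all protein-coding genes. The median percentile was 78.9 in the series ranked list, 79.5 in replicate 1 and 77.8 in replicate 2. In the series ranked list, 33 of 42 (78.6%) were at percentile 50 or higher, as are 50% of all genes by construction, and 19 (45.2%) were at 90 or higher, beside 10% of all genes. In both replicates at once, 10 (23.8%) were at 90 or higher, beside 4.39% of all genes: the 8 genes above, lin-13 and swsn-1. No test was made of the list as a whole.

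**Figure D1:**
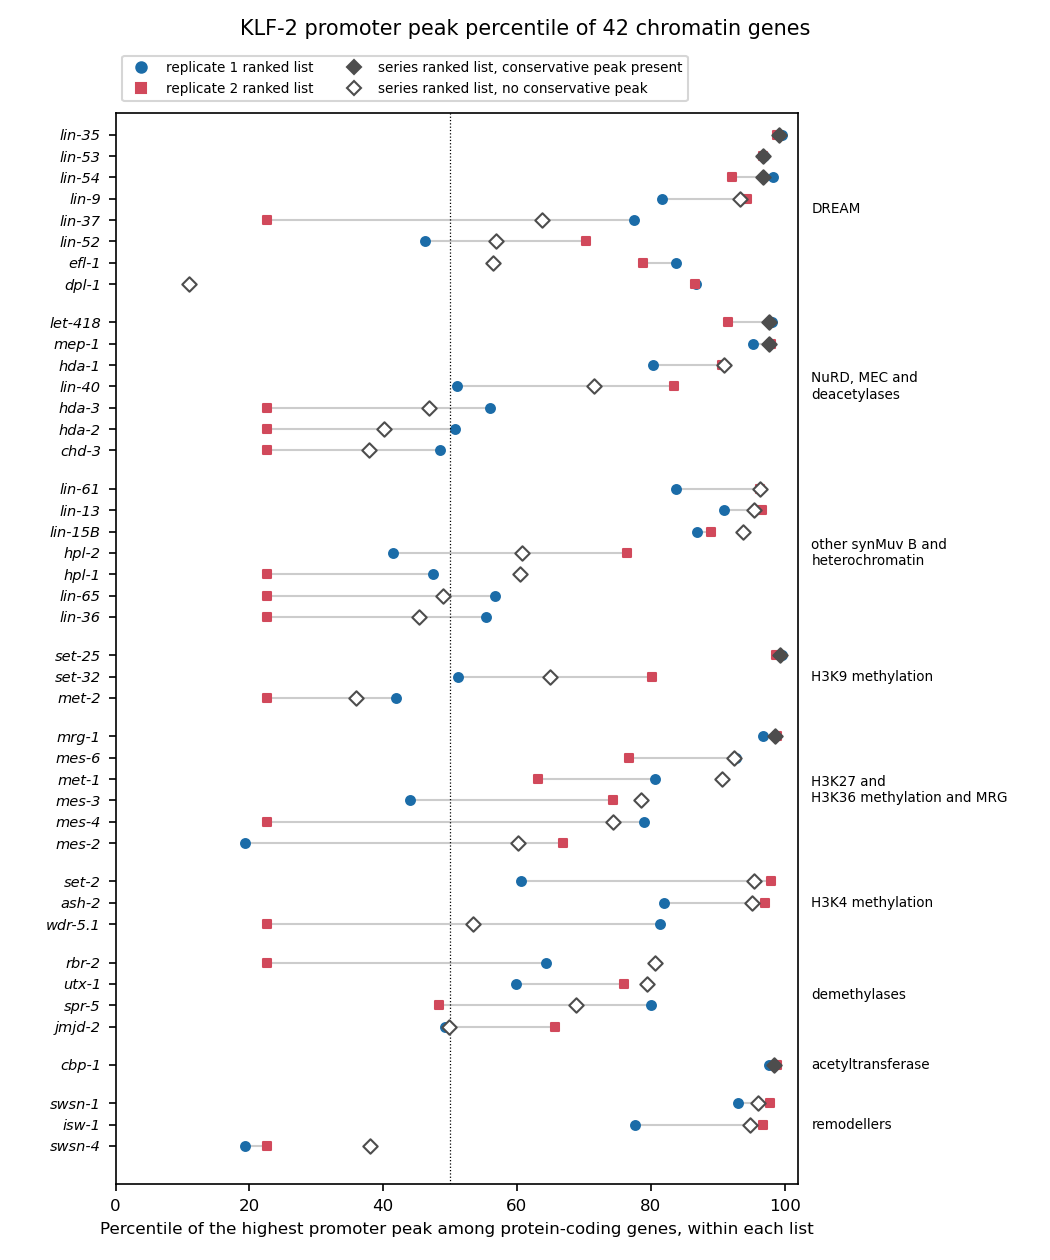
Percentile of the highest promoter peak (x axis, among 19973 protein-coding genes within each list) for each of the 42 genes, grouped by role, in replicate 1 (circles), replicate 2 (squares) and the series ranked list (diamonds, filled where a conservative peak was present); a line joins the replicates and the dotted line marks percentile 50. The 8 filled diamonds lie between 96.8 and 99.3, while squares at 22.6 and circles at 19.3 are genes with no peak in that replicate's window.

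A peak of any rank was close to universal and says less. At least 1 summit of the series ranked list lay in the window of 41 genes (97.6%), beside 77.9% of all genes. Replicate 1 had a ranked peak for 40 (95.2%), beside 61.3% of all genes, and replicate 2 for 30 (71.4%), beside 54.8%. The thresholded lists of single replicates were short. That of replicate 1 held 2 of the 42 genes, lin-35 and set-25 (4.76%, beside 1.29% of all genes), and that of replicate 2 held 4, set-25, mrg-1, cbp-1 and swsn-1 (9.52%, beside 1.52%). Only set-25 was in both of these lists. The other thresholded list of the series held 7 (16.7%, beside 3.05%): it lacked lin-35 and lin-54 and added ash-2.

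In the DREAM group, 3 of 8 genes had a conservative peak, beside 3.05% of all protein-coding genes. At percentile 90 or higher were 4, beside 10% of all genes, and the median percentile was 78.5. Role groups of this size are too small to be compared with each other. The peak at lin-35, the RB-like pocket protein, had a signal value of 133 in the series ranked list, 88.8 in replicate 1 and 59.1 in replicate 2. Those values correspond to percentiles of 99.2, 99.6 and 98.8, so the gene was near the top of these 3 ranked lists; of the thresholded lists, the other one of the series and that of replicate 2 lacked it. It ranked 259 of 1032 by signal in the conservative list, with a global IDR of 0.000729, and its summit lay 193 bp upstream of the transcript start (peak chrI:5807368-5807663). The peak lies between lin-35 and vps-51, a vesicle-tethering gene transcribed in the opposite direction, whose start was 225 bp from the summit. The peak therefore cannot be given to lin-35 alone.

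The MuvB gene lin-54 encodes a DNA-binding subunit of DREAM. Its peak had a signal value of 74.5, with 52.1 in replicate 1 and 31.1 in replicate 2 (percentiles 96.8, 98.3 and 92.2). Its summit lay 360 bp upstream of lin-54 and only 33 bp from the start of rpl-12, a ribosomal protein gene on the opposite strand. The histone-binding gene lin-53, whose RbAp46/48-like product is shared by DREAM and NuRD, had 74.3, with 43.1 in replicate 1 and 39.2 in replicate 2 (percentiles 96.8, 96.9 and 96.7). That summit lay 252 bp upstream of lin-53 and 215 bp from the start of nra-2, again on the opposite strand. All 3 conservative DREAM peaks were thus in short spaces between divergent genes, 417, 392 and 466 bp wide for lin-35, lin-54 and lin-53. Such a neighbour within 1000 bp was common among called genes, at 39.8% of the 610 with a conservative peak.

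The other 5 DREAM genes had no conservative peak. The MuvB gene lin-9 came closest, at 60.6 (percentile 93.3; 81.7 in replicate 1 and 94.4 in replicate 2; global IDR 0.0467). The MuvB genes lin-37 and lin-52 and the E2F gene efl-1 lay at percentiles 63.8, 56.9 and 56.4. The DP gene dpl-1 had no peak in its window in the series ranked list and so held the lowest percentile of the 42, 11. Both replicates nevertheless listed a peak there, 29.9 in replicate 1 at 143 bp downstream (percentile 86.8) and 26.96 in replicate 2 at 186 bp upstream (86.6). The other ranked list of the series also held a peak, 40.5 at 257 bp upstream (percentile 72). The score of dpl-1 thus depended on which list was read.

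Among the NuRD, MEC and deacetylase genes, 2 of 7 had a conservative peak, let-418 and mep-1, beside 3.05% of all genes. Below percentile 50 lay 3 of the 7. At let-418, the Mi-2 ATPase, the signal value was 84.4, with 49.9 in replicate 1 and 30.7 in replicate 2 (percentiles 97.6, 98.1 and 91.6). The summit lay 575 bp upstream, in an intergenic space of 13695 bp, and in the window of no other gene. Its paralogue chd-3 was among the lowest 3, at 23.7 (percentile 37.9), with 15.3 in replicate 1 (48.5) and no peak in replicate 2 or in the other ranked list of the series. At mep-1, the zinc-finger partner of LET-418, the signal value was 83.5, with 38.5 in replicate 1 and 45.3 in replicate 2 (percentiles 97.6, 95.3 and 97.9). The series summit lay 134 bp upstream, but the replicates' highest summits lay on either side of it, 234 bp upstream in replicate 1 and 46 bp upstream in replicate 2. The series summit also fell in exons of the non-coding RNA genes M04B2.11 and M04B2.13, which run in opposite directions. The start of M04B2.11, 15 bp away, was closer than that of mep-1. The class I deacetylase hda-1 stood at percentile 91 (80.4 in replicate 1 and 90.6 in replicate 2). Its summit lay 495 bp downstream of the start, inside an exon. The replicates' highest summits at hda-1 were 1430 bp apart, and the global IDR was 0.131. The genes hda-2 and hda-3 stood at percentiles 40.2 and 46.9. The MTA-like subunit gene lin-40 was at 71.5.

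None of the 7 other synMuv B and heterochromatin genes had a conservative peak, beside 3.05% of all genes. With so few genes, a count of 0 does not set this group apart. At percentile 90 or higher stood 3 of the 7, beside 10% of all genes. The MBT-repeat gene lin-61 was the highest, at 70.6 (percentile 96.3), with 28.3 in replicate 1 and 37.4 in replicate 2 (83.7 and 96.3) and a global IDR of 0.0327. Its series summit lay 282 bp upstream, in a space shared with bub-1, a spindle checkpoint kinase gene whose start was 377 bp away. The highest peak of replicate 1 was elsewhere, 193 bp downstream. The zinc-finger gene lin-13 was at 66.8 (percentile 95.4), in its own intron, 465 bp downstream, and the THAP-domain gene lin-15B at 61.7 (93.8). At lin-15B the replicates' highest summits were 1220 bp apart. The HP1 genes hpl-1 and hpl-2 lay at percentiles 60.4 and 60.7, lin-65 at 49 and lin-36 at 45.3.

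**Figure D2:**
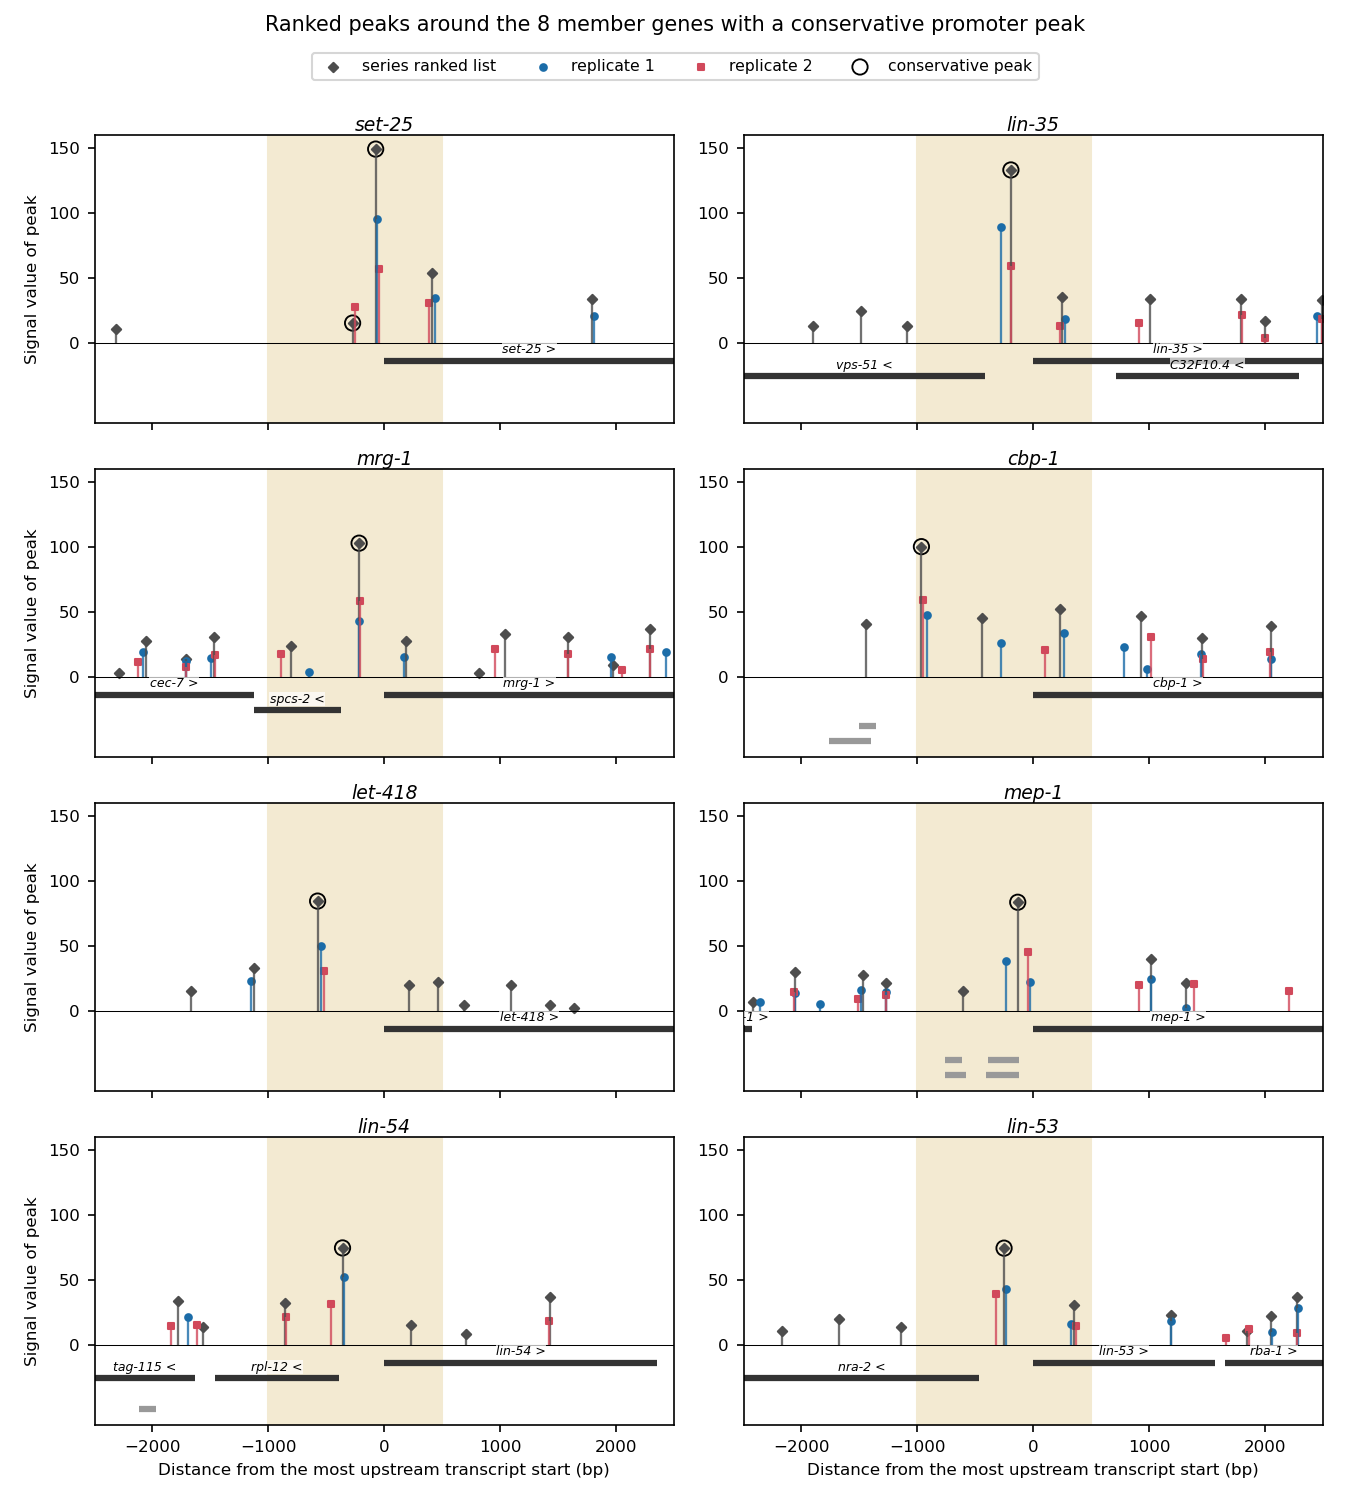
Signal value of each ranked peak (y axis) against distance from the most upstream transcript start of the gene in its own direction (x axis, bp), for the 8 genes with a conservative promoter peak; shading spans 1000 bp upstream to 500 bp downstream, black bars are protein-coding genes with > for the same and < for the opposite strand, and grey bars are non-coding RNA genes. In each panel the highest stem in the shaded span is a conservative peak (ringed); heights of different lists share an axis but not a normalization.

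The 3 H3K9 methyltransferase genes were spread over the ranking. The highest signal value among all 42 genes was at set-25, which encodes the enzyme for H3K9 trimethylation: 149 in the series ranked list, 95.4 in replicate 1 and 57.0 in replicate 2. The percentiles were 99.3, 99.6 and 98.7, and the peak ranked 213 of 1032 in the conservative list with a global IDR of 0.000707. The summit lay 74 bp upstream (59 and 48 bp in the replicates) in an intergenic space of 3762 bp and in the window of no other gene. A further conservative peak lay 273 bp upstream with a signal value of 15.0, rank 1014 of 1032; replicate 2 listed a peak there (27.8) and replicate 1 none. By contrast met-2, which acts before set-25 to make the lower methylation states, was at 22.6 (percentile 36), with 11.2 in replicate 1 (41.9) and no peak in replicate 2. The putative H3K9 methyltransferase gene set-32 lay at percentile 64.9.

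Among the 6 genes for H3K27 and H3K36 methylation and MRG, none fell below percentile 50 and the median was 84.6. The chromodomain gene mrg-1, which encodes an MRG15-like reader of H3K36 methylation needed in the germ line, had 103 in the series ranked list, 42.7 in replicate 1 and 57.9 in replicate 2 (percentiles 98.5, 96.7 and 98.8). Both replicates placed the summit within 4 bp of each other, 217 and 213 bp upstream. The space of 374 bp is shared with spcs-2, a signal peptidase subunit gene whose start, 158 bp away, was the closer one. The PRC2 genes mes-6, mes-3 and mes-2 were at percentiles 92.4, 78.5 and 60.2, and mes-2 had no peak in replicate 1. In the other ranked list of the series mes-3 had no peak (percentile 11). The peak of mes-6 lay 789 bp upstream, inside an exon of tag-77, a protein-coding gene on the opposite strand. It was 52 bp downstream of the start of tag-77, the closer start, and cannot be given to mes-6 alone. The H3K36 methyltransferase genes met-1 and mes-4 were at 90.7 and 74.3, and mes-4 was at 91.1 in the other ranked list. At met-1 the replicates' highest summits were 544 bp apart, at percentiles 80.6 in replicate 1 and 63.1 in replicate 2.

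For H3K4 methylation, set-2 and ash-2, of the SET1 complex, were at percentiles 95.4 and 95.1, and the third gene, wdr-5.1, at 53.5. The replicates differed at set-2: the signal value was 19.6 in replicate 1 (percentile 60.6) and 45.5 in replicate 2 (97.9), and the global IDR was 0.22. At ash-2 the values were 27.3 and 40.0 (81.9 and 97), and the summit lay in an exon, 180 bp upstream of an internal start. This peak also lay in the window of Y17G7B.20, a protein-coding gene on the opposite strand whose start was 402 bp away. The 4 demethylase genes formed the group with no gene at percentile 90 or higher, beside 10% of all genes. The genes rbr-2 (H3K4), utx-1 (H3K27), spr-5 (LSD1-like) and jmjd-2 (H3K9 and H3K36) were at 80.7, 79.4, 68.8 and 49.9. At rbr-2 replicate 2 had no peak, and the series summit lay 595 bp upstream but 14 bp from the start of the non-coding RNA gene ZK593.14. The summit of spr-5 lay in an exon of eif-3.J.

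The acetyltransferase gene cbp-1, the worm CBP/p300, had a signal value of 100.2, with 47.7 in replicate 1 and 59.2 in replicate 2 (percentiles 98.4, 97.7 and 98.9). Its summit was the most distant of the conservative peaks, 965 bp upstream (918 and 953 bp in the replicates), near the edge of the window and 435 bp from the start of the non-coding RNA gene R10E11.10. Of the remodellers, swsn-1, a core SWI/SNF subunit, had 69.3 (percentile 96), with 34.9 in replicate 1 and 45.1 in replicate 2 (93 and 97.8). The replicates' highest peaks at swsn-1 were 508 bp apart. They lay 72 bp downstream (replicate 1) and 430 bp upstream (replicate 2) of the nearest of its 5 transcript starts. The ISWI ATPase gene isw-1 was at percentile 94.8, and swsn-4, the SWI/SNF ATPase, at 38.1 with no peak in either replicate's window.

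Signal values on either side of the edge of the conservative list were close. Just inside it were let-418 (84.4) and lin-54 (74.5), with global IDRs of 0.00747 and 0.00663. Just outside it were swsn-1 (69.3; 0.0120) and lin-13 (66.8; 0.0127), followed by lin-61 and ash-2.

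**Figure D3:**
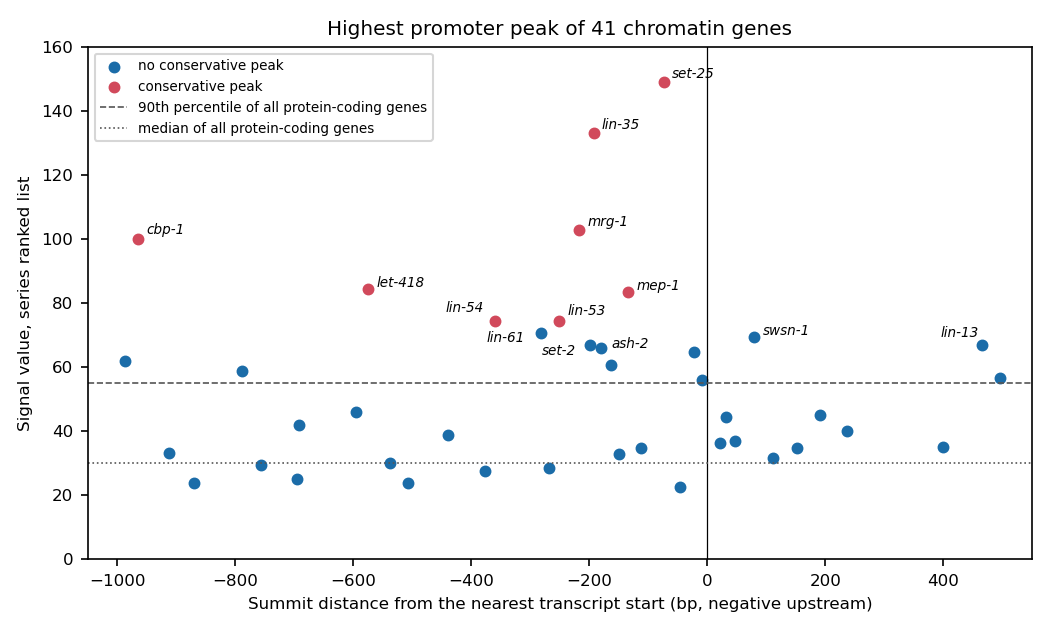
Signal value of the highest promoter peak in the series ranked list (y axis) against the distance of its summit from the nearest start of the same gene (x axis, bp, negative upstream) for the 41 genes with a peak; the dashed and dotted lines are the 90th percentile (55.0) and the median (30) of all protein-coding genes. For the 8 genes with a conservative peak this summit lies upstream, between 74 and 965 bp.

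The highest summits lay mostly upstream: 30 of 41 in the series ranked list (73.2%), beside 66.9% over all genes. The upstream summits lay at a median of 321 bp, beside 451 bp. All 8 genes with a conservative peak had it upstream, beside 539 of 610 genes (88.4%), at a median of 234.5 bp, beside 283 bp. None of the 8 summits was within 100 bp of a tRNA, snoRNA or snRNA gene. Inside the gene bodies but outside the windows, 0 of 42 genes had a conservative peak, beside 1.4% of all genes.

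Sharing of a promoter peak was close to the genome's share. The highest peak also lay in the window of another gene for 16 of 41 genes (39%), beside 37.4% of all genes with a peak, and in that of a protein-coding gene for 11 (26.8%), beside 24.8%. Further sharers, for genes without a conservative peak, included ZK632.9 for lin-52, spo-11 for swsn-4 and the non-coding F44B9.11 for lin-36. Their starts were 230, 291 and 143 bp from the summits, closer than the genes' own at 912, 871 and 377 bp. The peak of efl-1 was shared with fbxa-90 and that of set-32 with mina-1, both with starts farther from the summit. A divergent neighbour within 1000 bp was present for 8 of 42 genes (19%), beside 17.5% of all genes. Among those with a conservative peak it was present for 4 of 8 (50%), beside 39.8% of the 610. The 42 genes had a mean of 1.69 starts, beside 1.47, and windows of 1741 bp on average, beside 1793 bp; for genes with a conservative peak the windows averaged 1503 bp, beside 2149 bp. Among genes with 1 start, 5 of 25 had a conservative peak (20%), beside 344 of 14723 (2.34%).

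**Figure D4:**
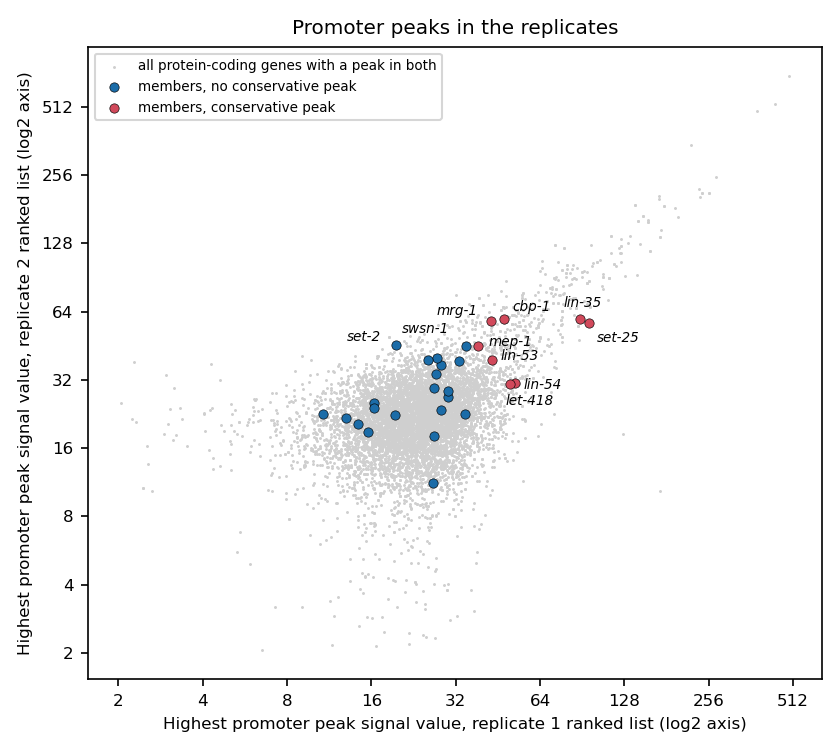
Signal value of the highest promoter peak in replicate 2 (y axis) against replicate 1 (x axis), both on log2 axes, for 8338 protein-coding genes with a peak in both (grey) and 29 chromatin genes among them. The 8 genes with a conservative peak (red) have values from 38.5 to 95.4 in replicate 1 and from 30.7 to 59.2 in replicate 2.

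A peak was present in both replicates for 29 genes, in replicate 1 alone for 11, in replicate 2 alone for 1 (mes-2) and in neither for 1 (swsn-4). The 11 were lin-37, chd-3, hda-2, hda-3, lin-36, lin-65, hpl-1, met-2, mes-4, wdr-5.1 and rbr-2. Over the 29, the replicates' signal values had a Spearman's rho of 0.672 and a Pearson's r of 0.635 on the log2 scale. Over the 8338 genes of the genome with both, these were 0.368 and 0.486. These are descriptions across genes that share libraries, and genes are not independent replicates. The replicates' highest summits were within 100 bp of each other at 15 of 29 genes (51.7%), beside 38.8% of all genes. For genes with a conservative peak, 6 of 8 (75%) were within 100 bp, beside 91.7% of 602 genes. With 8 genes this is too few to be read as a difference. The exceptions were lin-54 (120 bp) and mep-1 (188 bp).

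Motifs were counted on both strands within 50 bp of the 9 conservative summits in these promoters (set-25 has 2) and of the 482 conservative summits in any promoter window. In the sequences printed above, TTTGAA, the letters of the CHR element that LIN-54 proteins bind, stood in lin-54, mep-1 and mrg-1. With lin-53 it was in 4 of 9 summits (44.4%), beside 18.9% of 482. Its variant TTCGAA was in 1, let-418, beside 7.88%. GCGCGC was in 2 (set-25 and mep-1; 22.2%, beside 12.2%) and CGCGCA in 2 (mep-1 and mrg-1; 22.2%, beside 14.3%). In mep-1 the matches to GCGCGC and CGCGCA overlap in 1 run of letters.

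The GC-rich letters of Krüppel-like sites were not among them. CCGCCC or CCACCC was in 0 of 9 summits, beside 70 of 482 (14.5%). A count of 0 allows a share of up to about 33.3% (3 of 9, an approximation and not the exact interval used above). CACCC was in 0, beside 12.2%, GAGAGA in 0, beside 11.8%, and the E2F-like GGCGGGAA in 0, beside 0.83%. Over the highest ranked peaks of all 41 genes, TTTGAA was in 36.6%, beside 22.8% of 13912 peaks, GCGCGC in 14.6%, beside 2.01%, CGCGCA in 9.76%, beside 3.21%, and CCGCCC or CCACCC in 9.76%, beside 5.9%. TTCGAA was in 2.44%, beside 5.18%, CACCC in 4.88%, beside 8.7%, GAGAGA in 4.88%, beside 7.12%, and GGCGGGAA in 0, beside 0.546%. The median GC content of the 101 bases was 43.6% at these peaks, beside 39.6%, but 45.5% at the 9 conservative summits, beside 49.5% of the 482; its part in the counts of GC-rich motifs was not tested. A match describes letters, not a bound site.

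Related chromatin genes outside the 42 were read in the same way. Of 62 listed, 61 matched a gene, and 7 of these (11.5%) had a conservative peak, beside 3.05% of all protein-coding genes. The median percentile of the 61 was 69.2, and 14 were at 90 or higher, where 10% of all genes lie. The 7 were the SOP-2-related gene sor-3 (signal value 236, at a tRNA gene), the SWI/SNF genes swsn-3 (133) and pbrm-1 (83.6), the deacetylase hda-11 (80.2), the demethylase jmjd-1.2 (79.4), the RuvB-like ATPase ruvb-1 (78.7) and the H3K79 methyltransferase dot-1.1 (74.7). Of these peaks, that of ruvb-1 was shared with tofu-1, that of hda-11 with C35A5.8 and that of jmjd-1.2 with F29B9.11, all protein-coding, and those of pbrm-1 and sor-3 with non-coding RNA genes. No difference between these genes and the 42 was tested.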

How the data were processed

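Per the labels, KLF-2 ChIP-seq was made from 2 biological replicates of tagged embryos, in ce11 coordinates. The aligner and peak caller: not given in the sources used here. The authors deposited ranked and thresholded peak lists per replicate and for both together. The deposited signal value ranks peaks within a list. The deposited −log10 global IDR is given beside presence in the conservative list. The deposited summit offset, another column, gives position. In each of the 2 series ranked lists, 8 unnamed component columns were not used. Gene models were Ensembl release 115 (WBcel235), with all peak ends within its chromosome lengths. Genes were scored with Python 3.11.15, numpy 2.4.6, scipy 1.17.1 and pandas 2.3.3, drawn with matplotlib 3.10.9, after checks on simulated peaks. No hypothesis test was run: 1 group of 2 replicates was described beside all protein-coding genes. Named in full were genes with a conservative peak, the 10 highest and the 3 lowest by percentile; other named genes were picked after their values were seen. Genes, related genes and motifs were chosen with earlier results of these data known. Alternatives covered windows, starts, lists, neighbours and replicates.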

Additional observations from a re-analysis of the deposited data

How the results depend on the processing

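The count of 8 genes with a conservative peak was between 6 and 8 under the other windows, starts, overlap rule, thresholded list and without peaks at small-RNA genes, while the all-gene share ran from 2.17% (short window, 6 genes) to 4.12% (2000 bp upstream, 8 genes). The count was 5, beside 2.27% of all genes, when a peak belonged only to the nearest protein-coding start (lin-53, lin-54 and mrg-1 dropped out). Non-coding starts, some of them closer to a summit, were not counted there. Among peaks above the list's median signal the count was 4, beside 1.83%. The thresholded lists of replicates 1 and 2, read in place of the conservative list, gave counts of 2 and 4, beside 1.29 and 1.52%. These are the shorter single-replicate lists given above (436 and 456 peaks), not the conservative list remade without a replicate. Without peaks in the window of a second protein-coding gene, an alternative chosen after seeing the data, it was 4 (let-418, mep-1, set-25, cbp-1), beside 1.57% of all genes. The median percentile was 78.9 in the series ranked list, beside 77.8 to 79.5 in the ranked lists of single replicates. In the series list it was 77 with 2000 bp upstream, 81.5 with the most upstream start, 76.3 by overlap and 73.6 by nearest start. In replicate 1 (79.5) it was 72.3, 82 and 77.8 under the first 3 of these. In replicate 2 (77.8) it was 66.2 with 500 bp upstream and a shorter downstream side, 80.5 with the most upstream start and 75.3 by overlap. Genes whose highest peak is shared (16) numbered 9 in that short window. The rank correlation of 0.672 was 0.703 with absent peaks scored 0 and 0.645 with 2000 bp. CCGCCC or CCACCC stayed at 0. The causes were not tested. Depth is unknown, 2 replicates give no spread for a single gene, and a divergent promoter's peak cannot be given to 1 gene.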
